A study of Homo sapiens with 12 samples.

Results

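The 10 genes described here restrict the retrotransposon LINE-1 (L1) or clear the nucleic acids it leaves in the cell. They are *APOBEC3B*, *APOBEC3C*, *APOBEC3F*, *APOBEC3G*, *SAMHD1*, *MOV10*, *ZC3HAV1*, *TREX1*, *ADAR* and *RNASEH2A*, chosen by name for this role among the 58302 genes of the count table. RNA came from NCI-H520, a line grown from a human squamous cell carcinoma of the lung, in 12 libraries that their labels place in 4 groups of 3. The cells had been transduced with a lentivirus, either empty (OV-CTRL) or carrying the chimeric transcript *L1-FGGY* (OV-L1-FGGY). OV-L1-FGGY was treated with 0.2% DMSO, with 10 μM ML355, an inhibitor of the lipoxygenase 12-LOX, or with 450 μM NVR, a reverse transcriptase inhibitor used here against L1, and OV-CTRL was treated with 0.2% DMSO. Medium with inhibitor or solvent was given 5 h after seeding, and the length of treatment is not given in the sources used here. In the count table the columns of OV-CTRL are headed by DMSO alone and those of NVR by NVR alone, and they were matched to the titles that had no column of their own name. No label says whether libraries of a group came from separate cultures, so that the p-values measure the spread between these libraries alone.

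L1 moves by copying its RNA into DNA at the site of insertion, and cells oppose each step. ZAP, the product of *ZC3HAV1*, and the helicase MOV10 act on L1 RNA. The APOBEC3 cytidine deaminases and SAMHD1, which hydrolyses dNTPs, act on or around reverse transcription. TREX1, RNase H2 and ADAR remove or alter DNA, RNA:DNA hybrids and double-stranded RNA that would otherwise set off interferon, and their inherited loss causes Aicardi-Goutières syndrome. Several of these genes are themselves induced by interferon, and RNase H2 and *APOBEC3B* are also linked to cell proliferation.

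Library totals were 16242082 to 27004768 counts. *FGGY*, part of which the construct carries, had 4782 to 7346 counts in the 6 libraries of OV-L1-FGGY in DMSO or ML355 and 78 to 103 in the other 6. The 3 libraries labelled OV-L1-FGGY with NVR were thus at the *FGGY* level of OV-CTRL, against their label, and they are called the NVR-labelled libraries. In log2 CPM the libraries fell into these same sets of 6, with a lowest correlation of 0.932 within a set and a highest of 0.774 across. Changes of the members in the NVR-labelled libraries are therefore given against both DMSO groups, while some other genes are given against fewer. The other comparisons were recomputed without these libraries. Of the 10 squamous markers, *DSG3*, *KRT5*, *KRT6A* and *PKP1* were at 3 counts or fewer in every library. The summed squamous markers reached 1964 to 2075 CPM in OV-L1-FGGY in DMSO, 3475 to 5188 with ML355, 159.6 to 179.8 in the NVR-labelled libraries and 129.5 to 131 CPM in OV-CTRL. The summed epithelial markers, most of which was *KRT8* and *KRT18*, ran the other way, from 860 to 885.6 CPM and 435.9 to 560.1 CPM in the first pair of groups to 1995 to 3305 and 3935 to 5442 CPM in the second. Single markers went against these sums, as *EPCAM* averaged 8.86 and 9.16 CPM in the first pair and 0.859 and 1.57 in the second, and *TP63* 0.709 and 0.217 against 2.53 and 3.03 CPM. *SOX2* and the keratin gene *KRT19* were at 3 counts or fewer throughout OV-L1-FGGY in DMSO or ML355 but not in the other 6 libraries. Summed immune markers did not pass 15.2 CPM in any library, and *CD2*, *CD3D*, *CD3E*, *LYZ* and *MS4A1* were at 3 counts or fewer in all 12. Summed fibroblast markers were at 341 to 359.5 CPM in OV-L1-FGGY in DMSO, 111.8 to 122.3 with ML355, and 19.6 to 25.6 in the other 6 libraries, where *DCN* and *LUM* were at 3 counts or fewer. Summed endothelial markers did not pass 9.41 CPM. The part of these differences in the values below was not tested, and in bulk RNA fewer cells of a type and less RNA per cell cannot be told apart.

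Of the 10 members 8 could be tested. *TREX1*, the main 3′ to 5′ DNA exonuclease of the cytosol, had a count of 0 in all 12 libraries. All of its 1448 exon bases (chromosome 3, 48465811 to 48467645, GRCh38) lie inside exons of *ATRIP* on the same strand, and *ATRIP* itself had 0 to 5 counts. How reads shared by overlapping genes were counted is not given in the sources used here, so the 0 is not read as a level of *TREX1*. *APOBEC3G*, a deaminase best known from T cells, had 1 count in 1 ML355 library, 1 count in 1 library labelled NVR and none in the other 10, under the 3 counts taken as the floor, which is 0.111 to 0.172 CPM here. *RNASEH2A* shares 53.3% of its exon bases with *THSD8* on the same strand, which had no count, so its level may be understated in every library. *SAMHD1* shares 9.86% with *TLDC2* on the opposite strand (0 to 8 counts), and *APOBEC3B* 12.9% with its antisense gene *APOBEC3B-AS1* (0 to 2 counts). The APOBEC3 genes lie side by side on chromosome 22, from 38982347 at *APOBEC3B* to 39087743 at *APOBEC3G*, and their sequences are alike. How reads that match several of them were counted is not given in the sources used here, so the division of reads among them is uncertain.

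Promoter windows from RefSeq (GRCh38.p14, 250 bases before to 50 after a start) were found for 6 of the 10 members, 10 windows in all, and were searched on both strands. The core of the interferon-stimulated response element, which is GAAA, then 2 bases of any kind, then GAAA, matched none of the 10, and 3.57% of all 35116 windows. The 100 bases before a start of *ZC3HAV1*, the member with the largest difference between the DMSO groups, are shown with CG dinucleotides in capitals (chr7:139109721-139109820, minus strand).
ZC3HAV1: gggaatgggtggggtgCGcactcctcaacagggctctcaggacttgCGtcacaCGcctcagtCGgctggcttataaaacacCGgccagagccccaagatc
They hold 5 CG, the same as the median over all promoters at this position. The GENCODE model of *ZC3HAV1* reaches further upstream, to 139132122, so this window covers 1 of its starts. The CCAAT box, in 34.6% of all windows, was matched in *ADAR*, *SAMHD1* and *RNASEH2A*. The matches of *SAMHD1*, the member that fell most with ML355, and of *RNASEH2A* are shown with the box in capitals, in the direction of the gene (chr20:36951745-36951765 and chr20:36951734-36951754, minus strand; chr19:12806563-12806583, plus strand, where the box reads ATTGG).
SAMHD1, first box: gcaggaggCCAATaggctgcc
SAMHD1, second box: ataggctgCCAATactccttg
RNASEH2A: gcccgcggATTGGccggaagc
The other motifs searched were a pair of E2F-like sites and the cell cycle element TTTGAA, with no match in the 10 windows, and GGGCGG, in 1 of the *ADAR* windows and in 45.0% of all. A match describes the letters only and is not a measure of binding.

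To compare levels between genes, CPM (counts scaled to a common library size) were divided by exon length in kilobases. In OV-L1-FGGY in DMSO the highest level was that of *ZC3HAV1*, at 46.1 ± 3.79 CPM per kb (SD, n = 3). *ADAR* followed at 32.6 ± 2.61 (SD, n = 3) and *RNASEH2A* at 29.5 ± 2.38 (SD, n = 3), and these neighbours overlapped. *APOBEC3C* at 21.0, *MOV10* at 12.8, *APOBEC3B* at 6.99 and *SAMHD1* at 3.85 CPM per kb came next, each apart from the one above it, and *APOBEC3F* was under the floor. In OV-CTRL in DMSO *RNASEH2A* led at 42.9 ± 5.71 CPM per kb (SD, n = 3), above *ADAR* at 20.2 and *APOBEC3C* at 12.5. *MOV10* at 6.08 and *APOBEC3B* at 6.04 CPM per kb overlapped there, and *ZC3HAV1* stood sixth at 2.80, above *SAMHD1* at 2.10 and *APOBEC3F* at 0.866. With ML355 *ZC3HAV1* was again first, at 80.6 CPM per kb, and *SAMHD1* was at 0.715. In the NVR-labelled libraries *RNASEH2A* was again first, at 22.3, and *APOBEC3B* at 1.65 and *APOBEC3F* at 1.34 CPM per kb overlapped at the end of the order of tested genes.

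**Figure D1:**
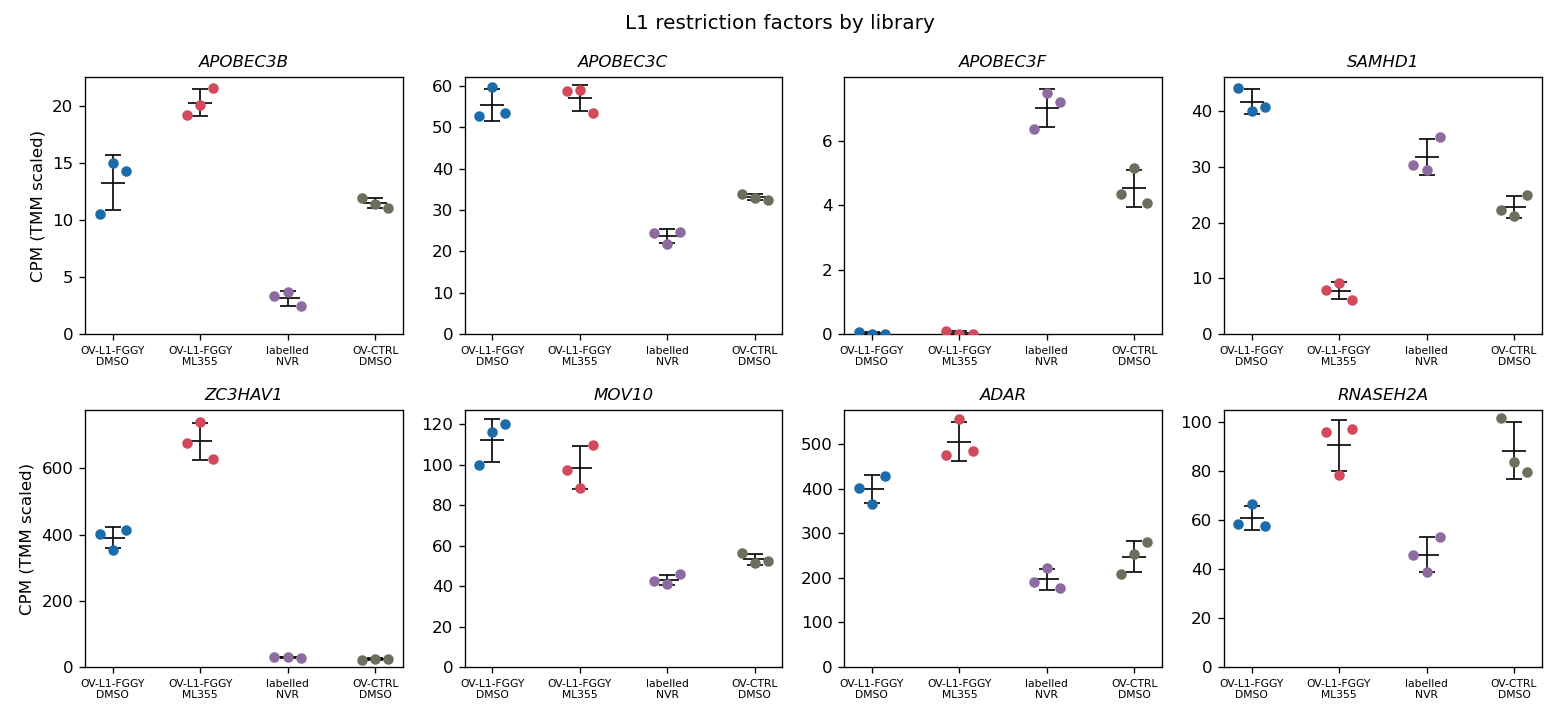
CPM (TMM-scaled library size) of the 8 tested members, 1 panel per gene with its own linear axis from 0. Points are libraries, the horizontal mark is the mean of 3 and the bar is the SD. *ZC3HAV1* lies between 354 and 740 CPM in the 6 libraries with high *FGGY* and between 20.9 and 29.9 CPM in the other 6, and *SAMHD1* is lowest with ML355.

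Between the DMSO groups, OV-L1-FGGY had more mRNA than OV-CTRL for 5 of the 8 tested members, namely *ZC3HAV1*, *MOV10*, *SAMHD1*, *APOBEC3C* and *ADAR*. It had less for *APOBEC3F* and *RNASEH2A*. These groups also differ in the squamous, epithelial and fibroblast markers given above. Overexpression of *L1-FGGY* and other differences between these groups cannot be told apart here. *APOBEC3B* did not pass the test. The test, also used below, was edgeR's quasi-likelihood test with Benjamini-Hochberg adjustment over 17849 genes at 0.01. Of all genes tested 68.7% passed in this comparison, 32.5% higher and 36.2% lower, so a call was common for any gene here. *APOBEC3F* was kept by the filter on low counts only through the NVR-labelled libraries and OV-CTRL, so its difference from the other groups was built in. It is still among the members counted here and in the median that follows. The median log2 fold change of the 8 was 0.72, against -0.11 over all genes.

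ML355 in OV-L1-FGGY went with less *SAMHD1* and with more *ZC3HAV1*, *APOBEC3B* and *RNASEH2A*. *APOBEC3C*, *MOV10* and *ADAR* did not pass, and *APOBEC3F* was under the floor in both groups. In this comparison 44.8% of all genes passed (21.3% higher, 23.5% lower), against 4 of the 8 members. The 7 members above the floor had a median log2 fold change of 0.34, against 0.00 over all genes. Without the NVR-labelled libraries in the fit the count was again 4, and that of OV-L1-FGGY against OV-CTRL was again 7.

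The NVR-labelled libraries, set against OV-L1-FGGY in DMSO as their label has it, had less *ZC3HAV1*, *APOBEC3B*, *MOV10*, *APOBEC3C* and *ADAR* and more *APOBEC3F*. *RNASEH2A* and *SAMHD1* missed the threshold. Here 73.6% of all genes passed (38.2% higher, 35.4% lower), and 6 of the 8 members did. *APOBEC3F* is among these 6 although the filter on low counts built in its difference. Against OV-CTRL in DMSO, the group they match in *FGGY*, they had less *APOBEC3B*, *RNASEH2A* and *APOBEC3C* and more *SAMHD1*, and *ZC3HAV1*, *MOV10*, *ADAR* and *APOBEC3F* did not pass. In that comparison 29.8% of all genes passed (14.5% higher, 15.3% lower), and 4 of the 8 members did. Every DMSO group serves in more than 1 comparison and the NVR-labelled libraries in both of theirs, so the comparisons are not independent of each other and no overlap between them is given.

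**Figure D2:**
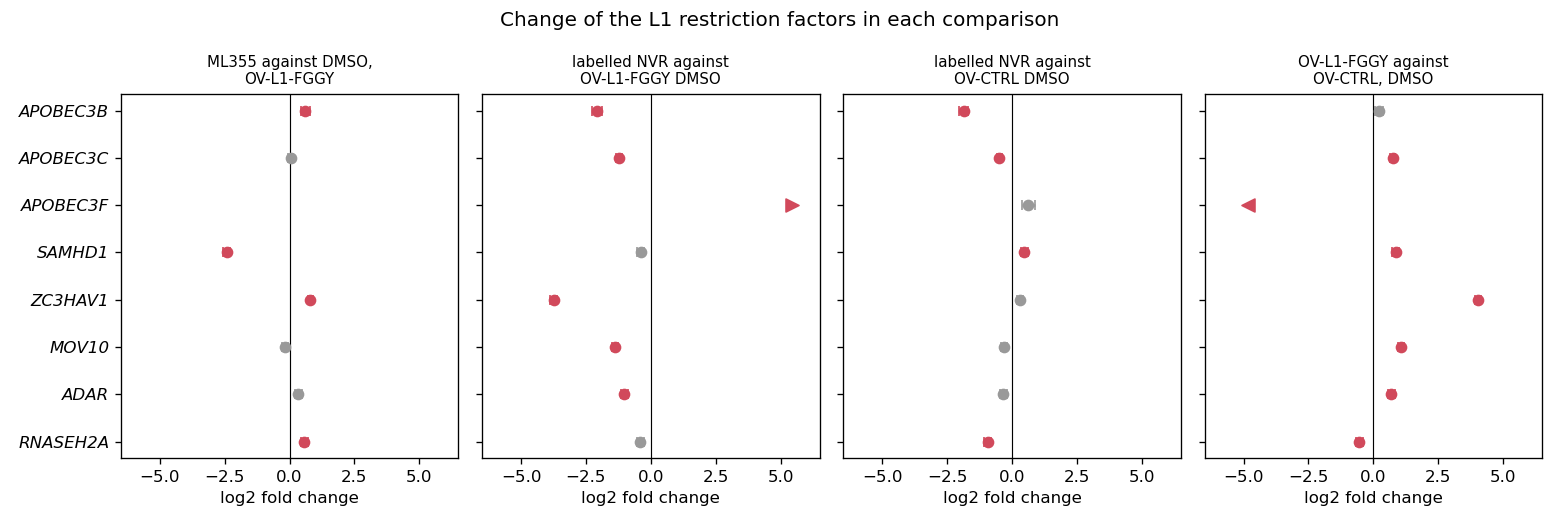
Log2 fold change of each tested member in 4 comparisons, the first-named group minus the second, with bars of 1 standard error from edgeR. Red marks passed an adjusted p of 0.01 and grey marks did not. Triangles for *APOBEC3F* are lower bounds on the size of the change, set against the floor of 3 counts, and *APOBEC3F* is left out for ML355. Its calls at the triangles were built in by the filter on low counts. *ZC3HAV1* is at 4.04 in OV-L1-FGGY against OV-CTRL and -3.75 in the NVR-labelled libraries against OV-L1-FGGY in DMSO.

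*ZC3HAV1* (ENSG00000105939, chromosome 7, 139043515 to 139132122, minus strand, GRCh38) encodes ZAP, which binds CpG-rich RNA and recruits its decay. It stood at 402, 354 and 415 CPM in replicates 1 to 3 of OV-L1-FGGY in DMSO. With ML355 it stood at 678, 740 and 629 CPM. It was at 29.0, 29.9 and 28.3 CPM in the NVR-labelled libraries and at 20.9, 24.7 and 25.6 CPM in OV-CTRL in DMSO. No 2 groups overlapped, and the step between the sets of 6 libraries was far wider than any spread within a group. OV-L1-FGGY exceeded OV-CTRL 16.4-fold in DMSO (log2 4.04, standard error 0.13, edgeR adjusted p = 1.41e-13). ML355 raised the gene 1.75-fold (log2 0.80, standard error 0.11, edgeR adjusted p = 1.6e-05). The NVR-labelled libraries were 13.4-fold lower than OV-L1-FGGY in DMSO (log2 -3.75, standard error 0.13, edgeR adjusted p = 2.84e-13), and against OV-CTRL their log2 fold change was 0.29 (standard error 0.12, edgeR adjusted p = 0.0514).

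The cofactors of ZAP did not have the range of *ZC3HAV1*. *TRIM25*, the ubiquitin ligase that ZAP needs, was at 120 ± 10.5 CPM in OV-L1-FGGY in DMSO and 80.5 ± 9.62 in OV-CTRL (SD, n = 3 each; log2 0.58, standard error 0.13, edgeR adjusted p = 0.000589). With ML355 its log2 fold change was -0.03 (edgeR adjusted p = 0.848). *KHNYN*, a nuclease that works with ZAP, passed in no comparison, and its adjusted p ranged from 0.0291 to 0.518 over the 4. *N4BP1*, a related nuclease, fell with ML355 from 43.7 ± 1.25 to 25.9 ± 1.86 CPM (SD, n = 3 each; log2 -0.76, standard error 0.11, edgeR adjusted p = 1.81e-05), opposite in sign to *ZC3HAV1* in this comparison. It was at 30.0 ± 2.35 CPM in OV-CTRL and 28.3 ± 1.20 in the NVR-labelled libraries (SD, n = 3 each). Both lay below OV-L1-FGGY in DMSO, as for *ZC3HAV1*.

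*MOV10* (ENSG00000155363, chromosome 1, 112673141 to 112700756, plus strand) encodes an RNA helicase found with L1 ribonucleoprotein. It had 99.8, 116 and 120 CPM in OV-L1-FGGY in DMSO and 97.4, 88.5 and 110 CPM with ML355, and these groups overlapped. It had 42.5, 41.1 and 45.8 CPM in the NVR-labelled libraries and 56.2, 51.2 and 52.2 CPM in OV-CTRL. OV-L1-FGGY in DMSO was thus 2.11-fold above OV-CTRL (log2 1.07, standard error 0.11, edgeR adjusted p = 2.29e-07), and the NVR-labelled libraries were 2.60-fold below it (log2 -1.38, standard error 0.11, edgeR adjusted p = 1.02e-08). The log2 fold change with ML355 was -0.18 (edgeR adjusted p = 0.166). Against OV-CTRL that of the NVR-labelled libraries was -0.30 (edgeR adjusted p = 0.0377), a difference that passed when library sizes were not scaled by TMM (-0.47, edgeR adjusted p = 0.00419).

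*TUT4* and *TUT7*, which add uridines to L1 mRNA together with MOV10, had the same direction as *MOV10* between the DMSO groups. *TUT4* was at 56.6 ± 3.82 CPM in OV-L1-FGGY in DMSO and 23.8 ± 4.39 in OV-CTRL (SD, n = 3 each; log2 1.25, edgeR adjusted p = 2.5e-06). *TUT7* was at 37.3 ± 3.31 and 11.8 ± 1.66 CPM (SD, n = 3 each; log2 1.66, edgeR adjusted p = 9.15e-09). Neither passed with ML355, with adjusted p of 0.925 for *TUT4* and 0.0162 for *TUT7* in edgeR.

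Of the APOBEC3 deaminases, *APOBEC3C* (ENSG00000244509, chromosome 22, 39014257 to 39020352, plus strand), a single-domain enzyme, had the most mRNA per kilobase in every library. Its CPM were 52.8, 59.8 and 53.6 in OV-L1-FGGY in DMSO and 58.8, 59.1 and 53.5 with ML355, which overlapped. They were 24.5, 21.7 and 24.7 in the NVR-labelled libraries and 33.8, 33.0 and 32.5 in OV-CTRL, each apart from the other groups. The gene was 1.68-fold higher in OV-L1-FGGY than in OV-CTRL (log2 0.74, standard error 0.10, edgeR adjusted p = 6.23e-06). The NVR-labelled libraries were 1.40-fold lower than OV-CTRL (log2 -0.49, standard error 0.10, edgeR adjusted p = 0.00153) and 2.35-fold lower than OV-L1-FGGY in DMSO (log2 -1.23, standard error 0.11, edgeR adjusted p = 1.64e-08). With ML355 the log2 fold change was 0.04 (standard error 0.10, edgeR adjusted p = 0.748), and its sign turned, to -0.08, with library size alone.

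*APOBEC3B* (ENSG00000179750, chromosome 22, 38982347 to 38992804, plus strand), the nuclear family member known as a source of mutations in tumours, had another order of groups. It was at 10.5, 14.98 and 14.3 CPM in OV-L1-FGGY in DMSO and at 11.9, 11.4 and 11.03 in OV-CTRL, and these overlapped (log2 0.21, standard error 0.16, edgeR adjusted p = 0.241). With ML355 it was at 19.2, 20.1 and 21.5 CPM, above all other libraries. In the NVR-labelled libraries it was at 3.30, 3.66 and 2.41 CPM, below all others. This is 3.63-fold under OV-CTRL (log2 -1.86, standard error 0.18, edgeR adjusted p = 9.02e-07) and 4.20-fold under OV-L1-FGGY in DMSO (log2 -2.07, standard error 0.18, edgeR adjusted p = 1.88e-08). The rise with ML355 was 1.53-fold (log2 0.61, standard error 0.16, edgeR adjusted p = 0.00393). That call was lost without replicate 1 of OV-L1-FGGY in DMSO (0.46, edgeR adjusted p = 0.0303), without replicate 3 of ML355 (0.57, edgeR adjusted p = 0.0162) and with library size alone (0.48, edgeR adjusted p = 0.0381).

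*APOBEC3F* (ENSG00000128394, chromosome 22, 39040604 to 39055972, plus strand), a cytoplasmic deaminase with a pair of catalytic domains, had 1, 0 and 0 counts in OV-L1-FGGY in DMSO and 2, 0 and 0 with ML355. It had 103, 132 and 106 counts in OV-CTRL and 127, 202 and 131 in the NVR-labelled libraries, or 4.33, 5.16 and 4.06 against 6.35, 7.47 and 7.18 CPM. Taken against the floor of 3 counts per library, OV-L1-FGGY in DMSO was at least 28.2-fold lower than OV-CTRL. The NVR-labelled libraries were at least 43.7-fold higher than OV-L1-FGGY in DMSO. The filter on low counts kept the gene only through the NVR-labelled libraries and OV-CTRL. Its calls in these comparisons were thus built in, and no p-value is given for them. Between the NVR-labelled libraries and OV-CTRL the log2 fold change was 0.63 (standard error 0.25, edgeR adjusted p = 0.0505). The groups did not overlap there, and DESeq2 called the difference (0.67, DESeq2 adjusted p = 0.00777).

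Of the summed APOBEC3 mRNA per kilobase, *APOBEC3C* made up 74.9% ± 2.96 in OV-L1-FGGY in DMSO, 66.3% ± 2.48 with ML355, 73.1% ± 3.99 in the NVR-labelled libraries and 64.0% ± 0.673 in OV-CTRL (SD, n = 3 each). *APOBEC3B* made up 24.8% ± 2.80, 32.9% ± 2.44, 13.5% ± 2.90 and 30.9% ± 0.304 in the same order (SD, n = 3 each). *APOBEC3F* held 10.98% ± 1.13 in the NVR-labelled libraries and 4.42% ± 0.540 in OV-CTRL (SD, n = 3 each), ranges that did not overlap. These shares are a description, and the uncertain division of reads among paralogs and the joined exon lengths bear on each. Of the other APOBEC genes, *APOBEC3A*, *APOBEC3D*, *APOBEC3H*, *APOBEC1*, *APOBEC2* and *APOBEC4* did not pass the filter on low counts. Of these *APOBEC3H* had the highest mean, 0.370 CPM in the NVR-labelled libraries.

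**Figure D3:**
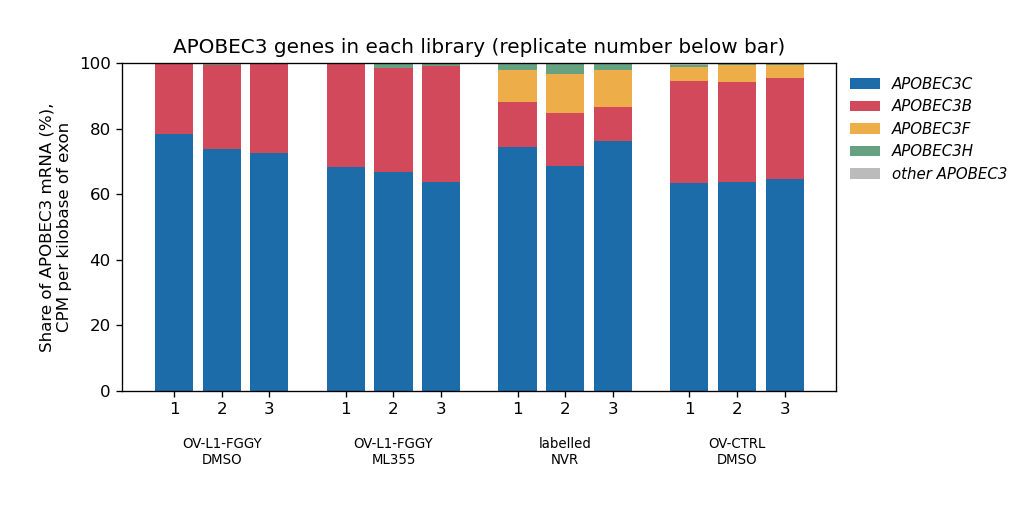
Share of each APOBEC3 gene in the summed APOBEC3 level of a library, in percent of CPM per kilobase of exon, 1 stacked bar per library. *APOBEC3C* takes 63.5% to 78.3% of each bar, *APOBEC3B* is smallest in the NVR-labelled libraries at 10.4% to 16.1%, and *APOBEC3F* can be seen only in the NVR-labelled libraries and OV-CTRL.

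*SAMHD1* (ENSG00000101347, chromosome 20, 36890229 to 36951893, minus strand) hydrolyses the dNTPs that reverse transcriptase uses. It had 44.2, 40.0 and 40.8 CPM in OV-L1-FGGY in DMSO and 7.83, 9.21 and 6.19 CPM with ML355. In the NVR-labelled libraries it had 30.3, 29.4 and 35.4 CPM, and in OV-CTRL 22.2, 21.1 and 24.9. None of the 4 groups overlapped, and the ML355 libraries were lowest. The fall with ML355 was 5.37-fold (log2 -2.43, standard error 0.15, edgeR adjusted p = 2.23e-09). OV-L1-FGGY exceeded OV-CTRL 1.83-fold in DMSO (log2 0.87, standard error 0.13, edgeR adjusted p = 2.03e-05). *SAMHD1* was thus the single member with a fall past the threshold under ML355.

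The NVR-labelled libraries lay between the DMSO groups in *SAMHD1*, and both differences were near the threshold. Against OV-CTRL they were 1.39-fold higher (log2 0.48, standard error 0.13, edgeR adjusted p = 0.00926). That call was lost when replicate 1 (0.51, edgeR adjusted p = 0.0222) or 3 (0.40, edgeR adjusted p = 0.0358) of the NVR-labelled libraries was left out, and when replicate 1 (0.46, edgeR adjusted p = 0.0252), 2 (0.42, edgeR adjusted p = 0.0538) or 3 (0.54, edgeR adjusted p = 0.0130) of OV-CTRL was. Against OV-L1-FGGY in DMSO their log2 fold change was -0.39 (standard error 0.13, edgeR adjusted p = 0.0128), which passed without their replicate 3 (-0.48, edgeR adjusted p = 0.00602), by limma voom (-0.40, limma adjusted p = 0.00565) and with library size alone (-0.64, edgeR adjusted p = 0.000959).

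*RNASEH2A* (ENSG00000104889, chromosome 19, 12806584 to 12813640, plus strand) encodes the catalytic subunit of RNase H2, which cuts RNA in RNA:DNA hybrids. It was at 58.5, 66.4 and 57.4 CPM in OV-L1-FGGY in DMSO and 95.7, 78.3 and 97.2 with ML355. It was at 45.8, 38.9 and 52.9 CPM in the NVR-labelled libraries and 102, 83.6 and 79.5 in OV-CTRL. ML355 and OV-CTRL overlapped, and no other pair of groups did. The rise with ML355 was 1.49-fold (log2 0.57, standard error 0.14, edgeR adjusted p = 0.0019), and the call was lost without replicate 1 (0.54, edgeR adjusted p = 0.0120) or 3 (0.52, edgeR adjusted p = 0.0129) of OV-L1-FGGY in DMSO. Under the NVR label the gene was 1.93-fold lower than in OV-CTRL (log2 -0.94, standard error 0.14, edgeR adjusted p = 5.46e-05).

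Between the DMSO groups *RNASEH2A* was 1.45-fold lower in OV-L1-FGGY (log2 -0.54, standard error 0.14, edgeR adjusted p = 0.00184). This call was lost without replicate 1 (-0.51, edgeR adjusted p = 0.0106) or 3 (-0.49, edgeR adjusted p = 0.0115) of OV-L1-FGGY in DMSO or replicate 1 of OV-CTRL (-0.41, edgeR adjusted p = 0.0135). The NVR-labelled libraries against OV-L1-FGGY in DMSO gave -0.41 on the log2 scale (standard error 0.14, edgeR adjusted p = 0.0121). This passed without their replicate 3 (-0.52, edgeR adjusted p = 0.00271) and with library size alone (-0.66, edgeR adjusted p = 8.3e-05).

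The other subunits of RNase H2, which hold the catalytic subunit in the complex, were lower in OV-L1-FGGY than in OV-CTRL in DMSO, as *RNASEH2A* was, and had other values in the remaining comparisons. *RNASEH2C* was at 29.9 ± 2.07 CPM in OV-L1-FGGY in DMSO, 28.8 ± 1.99 with ML355, 77.3 ± 23.4 in the NVR-labelled libraries and 46.1 ± 9.91 in OV-CTRL (SD, n = 3 each). Its log2 fold change was -0.62 between the DMSO groups, lower in OV-L1-FGGY (standard error 0.19, edgeR adjusted p = 0.00647) and -0.05 with ML355 (edgeR adjusted p = 0.844). It was 1.37 for the NVR-labelled libraries against OV-L1-FGGY in DMSO (standard error 0.19, edgeR adjusted p = 5.12e-06). It was 0.74 against OV-CTRL (standard error 0.18, edgeR adjusted p = 0.00413), although the libraries of these groups overlapped, while *RNASEH2A* was lower there. *RNASEH2C* was at 55.3 and 102 CPM in NVR-labelled replicates 2 and 3. Over all genes these were the least alike libraries within any group (chi-square per degree of freedom 73.7, against 32.7 for the next pair). The part of this in *RNASEH2C* was not tested. *RNASEH2B* passed only between the DMSO groups, lower in OV-L1-FGGY (log2 -0.63, standard error 0.14, edgeR adjusted p = 0.000725). Per kilobase of joined exons *RNASEH2A* made up 58.0% ± 3.46 of the 3 subunits' sum in the NVR-labelled libraries and 80.4% ± 1.13 in OV-CTRL (SD, n = 3 each). *RNASEH2C* made up 39.5% ± 3.69 and 17.2% ± 1.17 in the same order. These joined lengths were 2056 bases for *RNASEH2A*, 4972 for *RNASEH2C* and 26222 for *RNASEH2B*, which was at 33.2 CPM in OV-CTRL. With the overlap of *RNASEH2A* and *THSD8* as well, the shares can be set between groups but are no measure of the subunits' proportions.

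**Figure D4:**
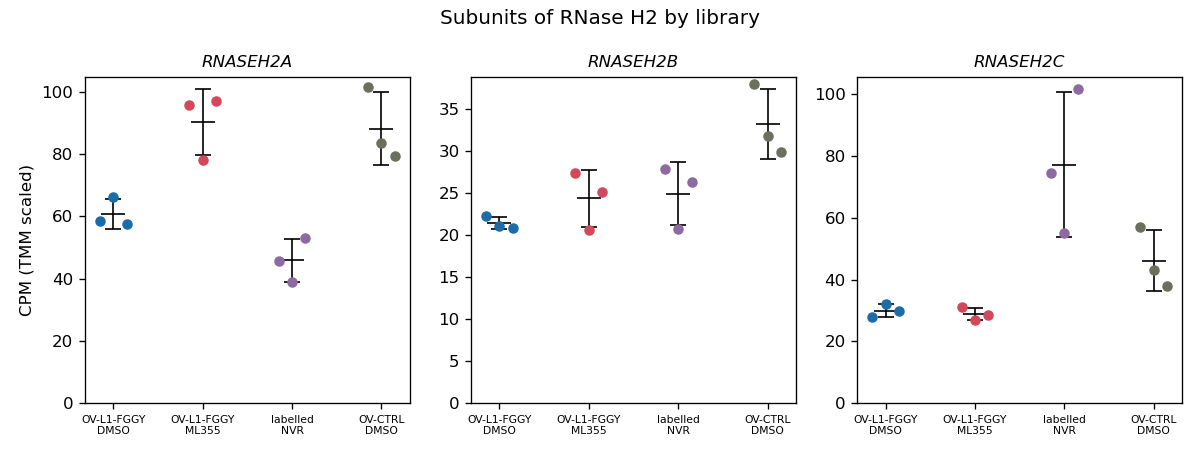
CPM (TMM scaled) of the 3 RNase H2 subunits by library, each panel with a linear axis from 0. Points are libraries, with the mean of 3 and the SD. *RNASEH2A* is lowest and *RNASEH2C* highest in the NVR-labelled libraries, where *RNASEH2C* spans 55.3 to 102 CPM.

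*ADAR* (ENSG00000160710, chromosome 1, 154581695 to 154628013, minus strand) edits adenosine to inosine in double-stranded RNA. Its CPM were 402, 365 and 429 in OV-L1-FGGY in DMSO and 476, 557 and 484 with ML355, which did not overlap. They were 191, 222 and 177 in the NVR-labelled libraries and 210, 254 and 279 in OV-CTRL, which did. *ADAR* was 1.61-fold higher in OV-L1-FGGY than in OV-CTRL (log2 0.69, standard error 0.13, edgeR adjusted p = 0.000156) and 2.03-fold lower in the NVR-labelled libraries than in OV-L1-FGGY in DMSO (log2 -1.02, standard error 0.13, edgeR adjusted p = 2.28e-06). With ML355 the log2 fold change of 0.34 missed the threshold (standard error 0.13, edgeR adjusted p = 0.0336) and passed in a fit of these 2 groups alone (0.35, edgeR adjusted p = 0.00849). Against OV-CTRL the NVR-labelled libraries gave -0.33 (edgeR adjusted p = 0.0492).

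*ADARB1*, the second catalytically active ADAR gene, differed more between the DMSO groups than *ADAR* did. It was at 123 ± 5.17 CPM in OV-L1-FGGY and 13.2 ± 0.253 in OV-CTRL (SD, n = 3 each; log2 3.22, standard error 0.10, edgeR adjusted p = 1.48e-13). ML355 lowered it to 89.1 ± 3.25 CPM (SD, n = 3; log2 -0.46, standard error 0.09, edgeR adjusted p = 0.000442). The NVR-labelled libraries had 24.995 ± 0.779 CPM (SD, n = 3), above OV-CTRL (log2 0.92, standard error 0.10, edgeR adjusted p = 2.51e-06). They were below OV-L1-FGGY in DMSO (log2 -2.30, standard error 0.10, edgeR adjusted p = 3.69e-12). *ADARB2* did not pass the filter.

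The inhibitors' effects were set against each other as the change of the NVR-labelled libraries from OV-CTRL minus the change of ML355 from OV-L1-FGGY, both in DMSO, which also compares the DMSO groups. OV-CTRL was taken because these libraries match it in *FGGY*. By their label the baseline would be OV-L1-FGGY in DMSO, and the difference on that baseline is not given here, so the calls below rest on this choice. In *SAMHD1* this difference was 2.90 on the log2 scale (standard error 0.20, edgeR adjusted p = 1.93e-08). The gene fell with ML355 and was higher in the NVR-labelled libraries than in OV-CTRL, though not than in OV-L1-FGGY in DMSO (-0.39). In *APOBEC3B* it was -2.47 (standard error 0.24, edgeR adjusted p = 6.95e-07), and in *RNASEH2A* -1.52 (standard error 0.19, edgeR adjusted p = 1.07e-05), both higher with ML355 and lower in the NVR-labelled libraries. *ADAR* at -0.67 (edgeR adjusted p = 0.00672) and *APOBEC3C* at -0.53 (edgeR adjusted p = 0.00731) also passed. Leaving out any of the DMSO replicates of OV-L1-FGGY, ML355 replicate 2, NVR replicates 1 or 3, or OV-CTRL replicates 2 or 3 ended the call of *ADAR* (edgeR adjusted p = 0.0104 to 0.0253). For *APOBEC3C* the call ended without OV-L1-FGGY DMSO replicates 1 or 3, ML355 replicates 1 or 2, or any library labelled NVR or OV-CTRL (edgeR adjusted p = 0.0106 to 0.0251). *ZC3HAV1* at -0.51 (edgeR adjusted p = 0.016) and *MOV10* at -0.12 (edgeR adjusted p = 0.573) did not pass, although *ZC3HAV1* did with DESeq2 (-0.49, DESeq2 adjusted p = 0.00753) and without OV-CTRL replicate 1 (-0.58, edgeR adjusted p = 0.00906). Of all genes 34.1% passed (16.8% higher, 17.3% lower), and 5 of the 8 members.

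Other genes that restrain L1, from a list of 20 of which 18 were tested, had calls in both directions in each comparison. *TEX19* had no counts in OV-L1-FGGY in DMSO, and *MOV10L1* was at 3 counts or fewer outside the ML355 libraries. The filter on low counts kept each only through libraries where it was higher, so any call against its low groups was built in. Both are among the genes counted below. With ML355 5 were higher and 3 lower, or 44.4% of those tested against 44.8% of all genes. *DGCR8*, the partner of the microRNA nuclease DROSHA, fell from 38.8 ± 1.37 to 7.58 ± 1.64 CPM (SD, n = 3 each; log2 -2.36, edgeR adjusted p = 3.97e-08), and the DNA repair nuclease gene *ERCC4* gave -1.40 (edgeR adjusted p = 4.63e-06). *ZCCHC3*, an RNA-binding cofactor of nucleic acid sensors, was higher (0.91, edgeR adjusted p = 8.73e-06). In OV-L1-FGGY against OV-CTRL 8 were higher and 7 lower, or 83.3% against 68.7% of all genes. The smallest p was that of *BST2* (tetherin), at 278 ± 25.7 against 1.20 ± 0.246 CPM (SD, n = 3 each; log2 7.85, edgeR adjusted p = 2.35e-14). The NVR-labelled libraries had 4 higher and 5 lower than OV-CTRL, or 50% against 29.8% of all genes. There *BRCA1* (-1.83, edgeR adjusted p = 2.9e-08) and *FANCD2* (-1.83, edgeR adjusted p = 3.33e-08), both of DNA repair, and the splicing regulator gene *HNRNPL* (-1.08, edgeR adjusted p = 3.57e-06) had the smallest p. Against OV-L1-FGGY in DMSO 6 were higher and 9 lower, or 83.3% against 73.6% of all genes.

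Of 8 genes of Aicardi-Goutières syndrome, 4 of which are members of the group and 2 the other RNase H2 subunits, 7 were tested. The cytosolic RNA sensor gene *IFIH1* was at 91.0 ± 7.42 CPM in OV-L1-FGGY and 3.42 ± 0.644 in OV-CTRL in DMSO (SD, n = 3 each; log2 4.73, edgeR adjusted p = 1.65e-12). It rose with ML355 to 190 ± 21.4 CPM (SD, n = 3; log2 1.06, edgeR adjusted p = 1.94e-05). *LSM11*, of histone mRNA processing, had the same signs (log2 1.10 and 0.92). The 10 host factors of L1 integration had 3 higher and 4 lower with ML355, where 44.8% of all genes passed, and *RPA1* (-1.02), *FEN1* (-1.02) and *PCNA* (-0.79), all of DNA replication, had the smallest p. Of the 10, 6 were lower and 0 higher in the NVR-labelled libraries than in OV-CTRL, where 15.3% of all genes were lower, and these included *POLD3* (-1.69), *FEN1* (-1.67) and *LIG1* (-1.62). Against OV-L1-FGGY in DMSO 7 were lower and 0 higher, and 73.6% of all genes passed there, 35.4% lower.

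Genes of the interferon response were far apart between the sets of libraries. Their summed CPM ran from 3429 to 3705 in OV-L1-FGGY in DMSO, 4378 to 6170 with ML355, 346 to 368 in the NVR-labelled libraries and 263 to 315 in OV-CTRL. *ISG15* alone averaged 1323 CPM in OV-L1-FGGY in DMSO and 2863 with ML355, where it ran from 2014 to 3334. The rise of the sum with ML355 was thus mostly that of *ISG15*. *RSAD2* was at 3 counts or fewer in every NVR-labelled and OV-CTRL library. The filter on low counts kept it only through the other groups, so its difference from them was built in. It is still among the genes counted here and in the medians, apart from that over 18 genes. Of the 19 tested, 15 were higher and 2 lower in OV-L1-FGGY than in OV-CTRL in DMSO, with a median log2 fold change of 3.72, where 32.5% of all genes were higher and 36.2% lower with a median of -0.11. *ZC3HAV1*, at 4.04, lay near this median, and *SAMHD1*, *APOBEC3C*, *ADAR* and *MOV10*, at 0.69 to 1.07, lay well below it. The median was 0.23 with ML355, with 6 higher and 4 lower, or 52.6% against 44.8% of all genes. It was -2.94 for the NVR-labelled libraries against OV-L1-FGGY in DMSO, with 3 higher and 16 lower, where 73.6% of all genes passed. Against OV-CTRL it was 0.76 over the 18 genes above the floor in either group, with 10 higher and 1 lower, where 29.8% passed. *IRF7*, a transcription factor of the interferon response, rose with ML355 (log2 2.49, edgeR adjusted p = 2.2e-08), while *IFI27* (-2.12) and *IFI6* (-1.18) fell. The part of the interferon genes in the members' values was not tested.

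The 15 genes of G1/S, the start of DNA replication, had another order of groups. Their summed CPM ran from 2496 to 2606 in OV-L1-FGGY in DMSO, 1646 to 1985 with ML355, 408 to 496 in the NVR-labelled libraries and 1961 to 2140 in OV-CTRL. In the NVR-labelled libraries 14 were lower than in OV-CTRL, with a median log2 fold change of -2.30, where 15.3% of all genes were lower, and *APOBEC3B* (-1.86) and *RNASEH2A* (-0.94) were lower there as well. Against OV-L1-FGGY in DMSO 15 were lower in these libraries, with a median of -2.64, where 35.4% of all genes were lower. With ML355 12 were lower and 1 higher, with a median of -0.63, where 23.5% of all genes were lower and 21.3% higher, while *APOBEC3B* and *RNASEH2A* were higher. The part of the G1/S genes in the values of *APOBEC3B* and *RNASEH2A* was not tested.

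**Figure D5:**
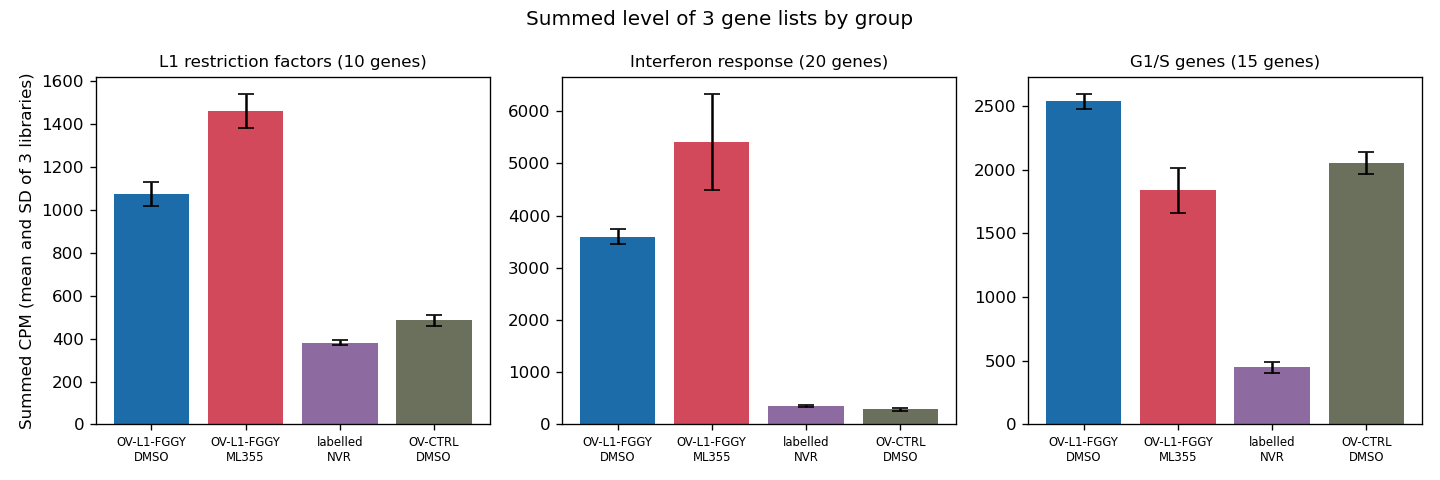
Summed CPM (TMM scaled) of the 10 members, 20 interferon response genes and 15 G1/S genes, as bars for the mean of 3 libraries with the SD, each panel on its own axis from 0. The members sum to 1073 CPM in OV-L1-FGGY in DMSO, 1462 with ML355, 380 in the NVR-labelled libraries and 485 in OV-CTRL, and *ZC3HAV1* and *ADAR* together supply most of each sum. In the interferon panel *ISG15* alone averages 1323 CPM in OV-L1-FGGY in DMSO and 2863 with ML355.

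Genes with a pattern over the 12 libraries like that of a member were sought among 14357 genes that averaged 1 CPM or more, by the root mean square difference of centred log2 CPM. For *ZC3HAV1* these were *ENG* (0.20), *IFI16* (0.22) and *NEURL1* (0.25), against a spread of *ZC3HAV1* itself of 2.17. For *APOBEC3B*, with a spread of 1.014, they were *IQGAP3* (0.19), *CDCA7* (0.20) and *TUBA1B* (0.24). For *SAMHD1*, with a spread of 0.93, they were *SLC35C1* (0.20), *GRK4* (0.21) and *NREP* (0.23). *ADAR* was nearest to *ADNP2* (0.06), *CHUK* (0.08) and *INTS6* (0.09), and *MOV10* to *ZBTB24* (0.10), *PDE4A* (0.11) and *FH* (0.13). *APOBEC3F* was nearest to the unnamed gene ENSG00000218048, *CCDC149* and *MYOM2*, and *RNASEH2A* to *HROB*, *VARS1* and *BAIAP2L2*. The points share libraries and the step between the sets of 6, so likeness here is a description with no test.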

How the data were processed

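RNA-seq of 12 libraries of NCI-H520 was used. The authors used STAR 2.5.3a (hg38) and HTSeq 0.11.2 and deposited, per gene, whole-number counts without normalization. The annotation release, the strand setting and how multiply aligned reads were treated are not given in the sources used here. The labels name a TruSeq kit where the methods name NEB. Depth was 16242082 to 27004768 counts per library. Counts were fitted over all 12 libraries with edgeR 4.0.16 in R 4.3.3 (TMM, filterByExpr, robust quasi-likelihood test of 4 group means, Benjamini-Hochberg adjusted p under 0.01, the study's threshold), and 17849 genes were tested. No fold change is given where both groups were at or under 3 counts, other than the fitted values of *APOBEC3F* under alternatives that turned its sign. Exon lengths and overlaps come from GENCODE 44. The alternatives were DESeq2 1.42.0, limma 3.58.1 voom (the study's test), other scalings, filters and thresholds, fitting the compared groups alone, the replicate block and each library left out. The fit without the NVR-labelled libraries was added after seeing the data. In a simulated ML355 comparison of 17060 genes, edgeR found 172 of 200 genes given a log2 change of 1 and made 4 false calls. The changed genes were few, well counted and all raised, unlike in the real comparisons, so these rates need not hold there. All members are named in each comparison, and of the other lists up to 3 genes with the smallest adjusted p. The genes most like *APOBEC3C* in pattern are not reported here. The members and lists were chosen with earlier results of these data known. Equal replicate numbers did not deviate together (no pair of groups had all 3 correlations above 0.1), so no block was used.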

Additional observations from a re-analysis of the deposited data

Results flagged for a closer look

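For 5 members the change of the NVR-labelled libraries from OV-CTRL and that of ML355 from OV-L1-FGGY, each against DMSO, differed by edgeR's test of the difference itself. On the log2 scale the difference was 2.90 for *SAMHD1*, -2.47 for *APOBEC3B*, -1.52 for *RNASEH2A*, -0.67 for *ADAR* and -0.53 for *APOBEC3C*. The first 3 passed in every alternative run, and *ADAR* and *APOBEC3C* did not. The compared groups differ in *FGGY*, in squamous, epithelial and fibroblast markers and in interferon genes as well as in inhibitor. These differences cannot be told apart here.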

How the results depend on the processing

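Counts of members passing the test (4 for ML355, 6 and 4 for the NVR-labelled libraries against OV-L1-FGGY in DMSO and OV-CTRL, 7 for OV-L1-FGGY against OV-CTRL, 5 for the difference between inhibitor effects) changed most with a minimum absolute log2 fold change of 1, to 1 for ML355, 1 for NVR against OV-CTRL, 3 for OV-L1-FGGY against OV-CTRL and 3 for the difference. The difference also gave 3 with library size alone and with the replicate block. *APOBEC3F*, whose calls the filter on low counts built in, was among the 6, the 7 and the 3 for OV-L1-FGGY against OV-CTRL. Leaving out 1 library gave 2 to 4 for ML355, 6 to 8 and 3 to 4 for the NVR-labelled libraries, 6 to 7 for OV-L1-FGGY against OV-CTRL and 3 to 5 for the difference. The lowest for ML355 came without replicate 1 of OV-L1-FGGY in DMSO. With the block, *SAMHD1* in the NVR-labelled libraries against OV-CTRL did not pass (0.48, edgeR adjusted p = 0.0182), and 5 of 12 libraries correlated best with their own number.

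Signs turned for *APOBEC3C* with ML355 under library size alone (-0.084) and for *APOBEC3F*, at the floor in both groups so that its fitted values are no measure of a change, with 1 library left out (-2.02 to 2.78). They also turned for the difference in *APOBEC3F* with limma voom (0.46) and with 1 library left out (-2.15 to 2.65). Library size alone moved the median of all genes to -0.13 for ML355, -0.16 and -0.15 for the NVR-labelled libraries, and the ML355 calls from 3810 higher and 4194 lower to 2978 and 4605, and those against OV-CTRL from 2593 and 2723 to 1825 and 3208. The cause was not tested. A fit of only the groups compared cannot give the difference between inhibitor effects. Levels under 3 counts could not be measured at this depth.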
